A study of Mus musculus with 12 samples.

Results

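Semaphorins, plexins, Slits, Robo receptors, netrins and Unc5 receptors are the proteins by which growing axons and growing vessels are steered. Here 37 mouse genes of these families were followed, chosen by gene symbol as 20 semaphorins, 9 plexins, 2 Slits, 2 Robo receptors, 2 netrins and 2 Unc5 receptors, among 32774 rows of one expression table. All 37 were found. Of these, 32 had a mean of at least 1 log2 CPM (log2 of reads scaled to a common library size) over the animals and entered the test, together with 12955 genes in all. The other 5, Sema3e, Sema4f, Plxnb3, Robo2 and Unc5c, fell under that filter and are given by their values alone.

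The study set adipose vascular anomalies, vessel-rich lesions in fat, against normal adipose tissue, measured as poly-A RNA of whole tissue by sequencing. Anomaly animals had the genotype VEC-Cre with the SB Transposase and onc3, where VEC-Cre stands for Cre under the VE-cadherin (Cdh5) promoter, active in endothelium, SB is the Sleeping Beauty transposase and onc3 is a mutagenic transposon. Normal animals had the same SB Transposase and onc3 without VEC-Cre, and every animal was C57BL/6; ages were not given. The 8 anomaly libraries came from 7 animals (M580, 18f, M566, F578, M610, M278 and M605), since 2 pieces, from leg and arm, belong to M566 and were averaged as log2 values, and the 4 normal libraries came from 4 animals (F539, M5, M602 and M2). The series' design text speaks of 8 anomaly animals, and the 7 counted here follow the titles; with both pieces of M566 as replicates, Sema6d did not pass (limma adjusted p = 0.0582) and Unc5b did (0.0449). The samples were dissected tissue, with no sorting of cells, so the RNA of endothelium, where Cre acts, is mixed with that of every other cell.

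Semaphorins are secreted or membrane-bound ligands, and plexins are their receptors, which act through small GTPases to collapse or steer the cell's leading edge. Class 3 semaphorins are secreted, and most need a neuropilin beside an A-type plexin, while classes 4 to 7 are held at the membrane and bind plexins directly. Slits bind Robo receptors, and netrins bind Dcc, neogenin and Unc5 receptors. In vessels, plexin D1, Robo4 and Unc5b are known as endothelial receptors through which sprouting is held back or guided.

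Depth, as reads recovered from the table, was 11749969 to 29763059 for 7 anomaly libraries, 953994 for M580, where 1 read stood for 0.742 CPM, and 10337258 to 33980694 for normal libraries. In M580, 5 of the 37 members had 3 or fewer reads, none of them among those that passed the test. Endothelial markers were higher in 9 of 20 and lower in 0 of 20 by the same test, with a median log2 fold change of 1.25 and a summed level of 2482 to 8099 CPM in anomalies, against 2001 to 3794 CPM in normal adipose. Macrophage markers were higher in 6 of 12 and lower in 0 of 12 (1000 to 6774 CPM in anomalies, 827 to 1682 CPM in normal adipose). Markers of dividing cells were higher in 9 of 9, T and NK cell markers in 5 of 9, fibroblast markers in 3 of 12 with 1 lower, and pericyte and smooth muscle markers in 2 of 13. Adipocyte markers were lower in 14 of 14 (1441 to 28987 CPM in anomalies, 37960 to 98851 CPM in normal adipose). Lymphatic markers were higher in 2 of 5 tested, neutrophil markers in 1 of 3 and B cell markers in 1 of 7. Schwann cell and neuron markers were higher in 2 of 6, with 3 changes positive, 3 negative and a median of 0.03. Past the filter were 5 of 7 lymphatic, 3 of 8 neutrophil and 6 of 14 Schwann cell and neuron markers. No skeletal muscle or skin marker passed. Skin markers, with 6 of 6 changes positive, summed to 5.68 to 7563 CPM in anomalies and 8.31 to 950 CPM in normal adipose. Skeletal muscle markers, with 7 of 7 negative, summed to 31.3 to 3248 CPM and 681 to 2356 CPM. Over all genes tested, 15.3% were higher and 23.2% lower. The pericyte and smooth muscle count and the B cell count lay near that higher share. No marker of these lists was at 0 in all libraries. In whole tissue, a change in the number of cells of a type and a change in RNA per cell cannot be told apart. Of the anomaly animals, 5 were titled subQ and 2 (18f and M278) were titled fat, while all 4 normal animals were titled fat, so the titled site and the lesion cannot be told apart for the 5. M605 is named as a control in 1 of the table's header lines but as an anomaly in the other and in its GEO title, and it was used as an anomaly.

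Of the 32 members tested, 9 were higher in the anomalies: the ligand genes Sema7a, Sema4d, Sema3a, Sema4c, Sema6d and Sema3f, and the receptor genes Plxnd1, Plxnb2 and Plxnc1. One member, the secreted ligand gene Sema3c, was lower, and 22 did not pass, with log2 fold changes between -1.32 and 1.82 (limma with a Benjamini-Hochberg adjusted p under 0.05 over all 12955 genes). The 9 are 28.1% of the members tested, where 15.3% of all genes tested were higher. The 1 lower member is 3.13%, where 23.2% of all genes were lower. The median log2 fold change was 0.66 over the 32 members and -0.10 over all genes. Sema3a, Sema3d and Sema5b had normal means under 1 log2 CPM and passed the filter through their anomaly values, so these counts and medians are descriptions. By role, 6 of 18 tested semaphorins were higher and 1 lower, 3 of 8 plexins were higher, and 0 of 3 Slits and Robos and 0 of 3 netrins and Unc5 receptors passed in either direction. In 3 members that passed, Sema7a, Sema4d and Plxnb2, no anomaly animal overlapped a normal animal. That is close to the 8.3% of all genes whose anomaly animals all lay above the normal animals. No member had all anomaly animals below the normal animals, where 12.4% of all genes did. The count moved most without normal animal M602, with 5 members higher and 0 lower. All genes moved too, to 1189 higher and 1853 lower, against 1985 and 3001 with every animal kept. Without M2, 6 members were higher and 1 lower (all genes 1369 and 2022). Without M5, 8 were higher and 0 lower (all genes 1651 and 2307). Without the shallow library M580, 8 members were higher and 1 lower (all genes 1958 and 2675). Without M605, 8 were higher and 2 lower (all genes 1674 and 2622). Sema6d did not pass without M580 or without M605, and Sema3b passed without M605.

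**Figure D1:**
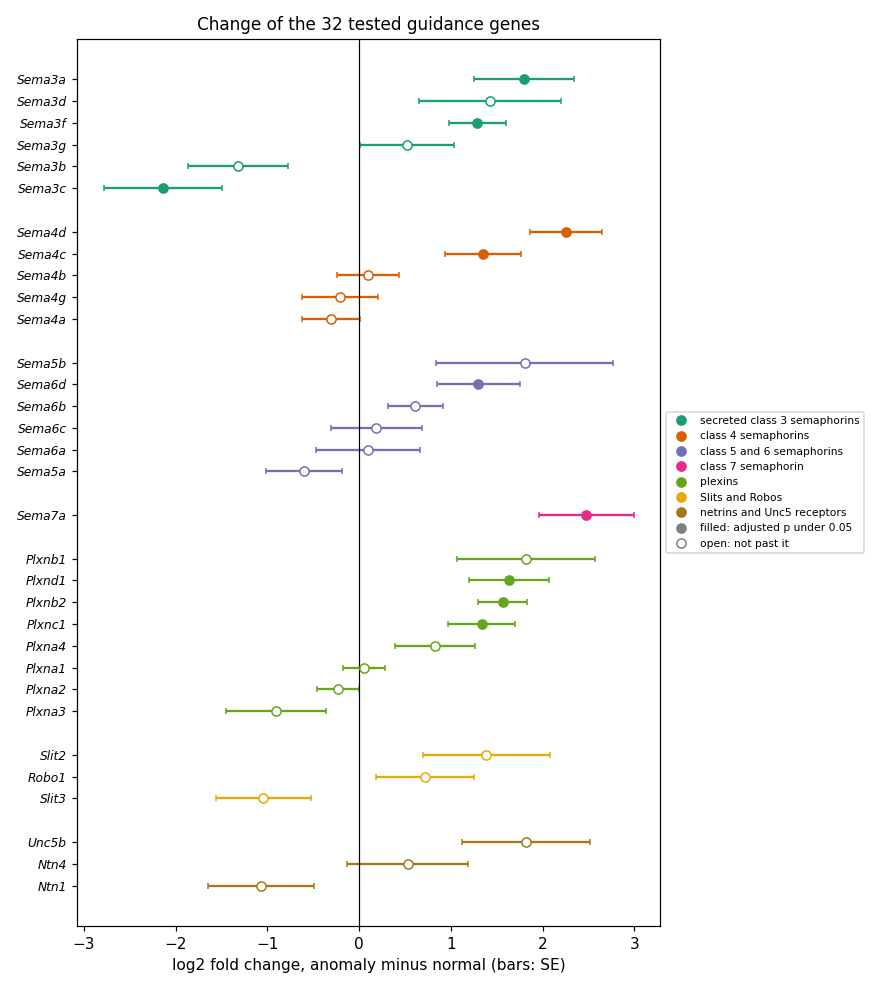
Log2 fold change of the 32 tested guidance genes, anomaly minus normal, on the x axis, with points for the estimate and bars for its SE, in blocks by role. Filled points passed the test: 9 lie right of 0 and Sema3c lies left of it, while no Slit, Robo, netrin or Unc5 gene is filled.

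The largest rise among the members was that of Sema7a, the gene of the only class 7 semaphorin, a ligand anchored in the membrane by a lipid that binds plexin C1 and beta1 integrins. Sema7a (chr9:57940112-57962865, + strand; gene coordinates here are those of GENCODE vM21 on GRCm38) lay between 6.26 log2 CPM in M566 and 9.37 in M610, with a median of 7.93, in anomalies, against 5.55 in F539, 5.52 in M5, 4.88 in M602 and 4.65 in M2 in normal adipose. Every anomaly animal was above every normal animal. The log2 fold change was 2.48 ± 0.52 (SE), or 5.57-fold, with a limma adjusted p of 0.00455. Sema7a kept its call under all 24 other ways of processing the data, including with each animal left out in turn (2.19 to 2.71). Relative to the mean of the 20 endothelial markers in each animal, Sema7a was still higher, by 1.49 on the log2 scale (limma adjusted p = 0.0122), and in the 2 fat-titled anomalies it was higher by 2.05 (limma adjusted p = 0.0447).

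The promoter windows of 3 members are printed here because their genes were the most abundant ligand and receptor of the set in anomalies and the only member that passed as lower. Each runs from 250 bases before to 50 bases after the annotated start, from RefSeq on GRCm38.p6, 5′ to 3′ on the gene's strand, with each CpG in capitals. The Sema7a window is chr9:57939862-57940161 on the + strand, with 67.3% GC and 23 CpG. The Plxnd1 window is chr6:115994956-115995255 on the - strand, with 67.0% GC and 23 CpG. The Sema3c window is chr5:17574566-17574865 on the + strand, with 75.7% GC and 42 CpG.
Sema7a: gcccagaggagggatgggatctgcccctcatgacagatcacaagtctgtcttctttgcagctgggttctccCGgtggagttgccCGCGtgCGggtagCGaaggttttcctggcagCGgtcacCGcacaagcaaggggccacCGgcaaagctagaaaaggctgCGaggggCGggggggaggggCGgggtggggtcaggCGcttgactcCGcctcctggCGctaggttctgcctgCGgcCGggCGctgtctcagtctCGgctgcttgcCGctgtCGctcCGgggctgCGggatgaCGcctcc
Plxnd1: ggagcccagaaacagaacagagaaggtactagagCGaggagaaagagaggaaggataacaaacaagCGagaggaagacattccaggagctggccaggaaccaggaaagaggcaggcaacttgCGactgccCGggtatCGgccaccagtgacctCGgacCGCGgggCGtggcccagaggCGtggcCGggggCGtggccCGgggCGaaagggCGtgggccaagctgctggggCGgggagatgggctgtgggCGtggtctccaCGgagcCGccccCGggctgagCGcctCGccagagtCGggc
Sema3c: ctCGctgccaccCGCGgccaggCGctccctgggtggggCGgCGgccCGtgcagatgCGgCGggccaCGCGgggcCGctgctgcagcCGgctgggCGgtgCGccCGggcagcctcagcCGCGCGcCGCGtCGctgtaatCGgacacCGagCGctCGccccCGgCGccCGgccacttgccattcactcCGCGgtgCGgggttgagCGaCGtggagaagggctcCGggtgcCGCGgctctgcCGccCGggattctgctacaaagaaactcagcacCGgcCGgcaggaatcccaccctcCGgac
The first 150 bases held 8 CpG in Sema7a and 5 in Plxnd1, and the last 150 held 15 and 18. In Sema3c the first 150 bases held 24 and the last 150 held 17, with 1 more across the join.

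In all, 31 members matched the promoter table, with 44 windows between them. Their median GC was 64.0%, against 60.7% over the 12875 windows of tested genes, and their median number of CpG was 17.5, against 20 over tested genes. The letters CCGGAA (an ETS-type core) stood on either strand in 5 of 44 member windows and in 14.9% of all 32851 windows. TGANTCA (an AP-1 type site) stood in 3 of 44 and in 7.81%, ACGTG (a hypoxia response core) in 9 of 44 and in 19.6%, and TATAAA in 1 of 44 and in 13.6%. All 32851 windows had a median GC of 52.7% and a median of 7 CpG, so they are not matched to the member windows in base content. Of the 3 windows printed, Sema3c alone holds one of these, an ACGTG at base -45 from the start, in which the CG is printed in capitals. A match is a match of letters and says nothing of binding.

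Among class 4 semaphorins, which are held in the membrane, Sema4d and Sema4c were higher and 3 others did not pass. Sema4d (chr13:51685529-51793747, - strand) encodes the immune semaphorin CD100, which binds plexin B1, plexin B2 and Cd72. Its level was lowest in 18f, at 4.93 log2 CPM, and highest in M278, at 6.55, with a median of 6.00 over the anomaly animals, against 4.41 in F539, 3.37 in M5, 2.60 in M602 and 3.67 in M2 in normal adipose. The groups did not overlap. Anomaly minus normal was 2.26 ± 0.39 (4.78-fold; limma adjusted p = 0.00218). Relative to endothelial markers it was higher by 1.27 (limma adjusted p = 0.0302), and in the fat-titled anomalies alone by 2.23 without passing (limma adjusted p = 0.0667).

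Sema4c (chr1:36548639-36558349, - strand), whose protein binds plexin B2, lay between 5.24 log2 CPM in 18f and 7.88 in M610, with a median of 6.94, in anomalies, against 5.61, 5.70, 5.39 and 5.01 in F539, M5, M602 and M2 of normal adipose. Animal 18f lay among the normal animals and the other 6 anomaly animals above them. The log2 fold change of Sema4c was 1.35 ± 0.42 (limma adjusted p = 0.0254). It did not pass without normal animal M602 (1.34, limma adjusted p = 0.0671) or M2 (1.21, 0.0812). Sema4c shares 7.27% of its exon bases with D430040D24Rik on the opposite strand, and the libraries are unstranded, so reads from those bases cannot be assigned to either gene. The other 3 had small values whose direction turned with the scaling: Sema4b had 0.10 as deposited and -0.90 relative to endothelial markers, while Sema4a had -0.31 as deposited and 0.12 with library totals. Sema4g had -0.21 as deposited and 0.22 with library totals. Sema4f was under the filter, between -1.19 and 2.89 log2 CPM in anomalies and between -0.38 and 0.76 in normal adipose.

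Of the secreted class 3 ligands, Sema3a and Sema3f were higher and Sema3c was lower. Sema3a (chr5:13125414-13602565, + strand), a repellent that works through neuropilin 1 and A-type plexins, was a low-abundance gene: between 1.00 log2 CPM in M566 and 4.27 in M580, with a median of 2.28, in anomalies, against 1.10, 1.22, -0.39 and 0.35 in F539, M5, M602 and M2 of normal adipose. The groups overlapped at M566, and M580, the shallow library, was highest, on 26 reads. On the log2 scale the difference was 1.80 ± 0.54 (limma adjusted p = 0.0235). Without normal animal M602 it was 1.48 (limma adjusted p = 0.0874), and without M2 it was 1.72 (0.0657).

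Sema3f (chr9:107681500-107710475, - strand), a ligand of neuropilin 2 known for holding back lymphatic and blood vessel growth, lay between 6.38 log2 CPM in 18f and 8.36 in M610, with a median of 7.32, in anomalies, against 6.13, 6.62, 6.01 and 5.67 in F539, M5, M602 and M2 of normal adipose. Only 18f lay below a normal animal, M5. The log2 fold change of Sema3f was 1.29 ± 0.31 (limma adjusted p = 0.00897), and it passed with any 1 animal left out. In the 2 fat-titled anomalies it was 0.69 (limma adjusted p = 0.227).

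Sema3c (chr5:17574281-17730268, + strand), a ligand of both neuropilins that also signals through plexin D1, was the only member that passed as lower. It lay between 2.57 log2 CPM in M580 and 5.88 in 18f, with a median of 3.94, in anomalies, against 5.0 in F539, 6.95 in M5, 6.73 in M602 and 5.29 in M2 in normal adipose. Animal 18f lay within the normal range and the other 6 below it. It was 4.40-fold lower (log2 fold change -2.14 ± 0.64, limma adjusted p = 0.0231). Without normal animal M5 the value was -1.82 (limma adjusted p = 0.0745), and without M602 it was -1.89 (0.081). Leg minus arm in M566 was -2.04 for this gene. Adipocyte markers fell in the same animals, and their part in the change of Sema3c was not tested.

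The remaining class 3 genes did not pass. Sema3d, a ligand of neuropilin 1, had a log2 fold change of 1.43 ± 0.77 (limma adjusted p = 0.161), and its leg and arm values in M566 were 0.14 and 5.13. Sema3g, which is made by endothelium, had a high level in both groups, between 6.05 and 8.75 log2 CPM in anomalies and 6.03 and 7.16 in normal adipose (0.53 ± 0.51, limma adjusted p = 0.434). Sema3b had -1.32 ± 0.55 (limma adjusted p = 0.0766), and it passed without anomaly animal 18f (0.0498), F578 (0.0448) or M605 (0.0416). Sema3e, whose protein binds plexin D1 without a neuropilin, was under the filter: M278 had 0 reads, which allows up to 0.196 CPM, and M566 had 161 reads in the leg and 194 in the arm. Its normal animals had 24, 150, 46 and 41 reads.

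**Figure D2:**
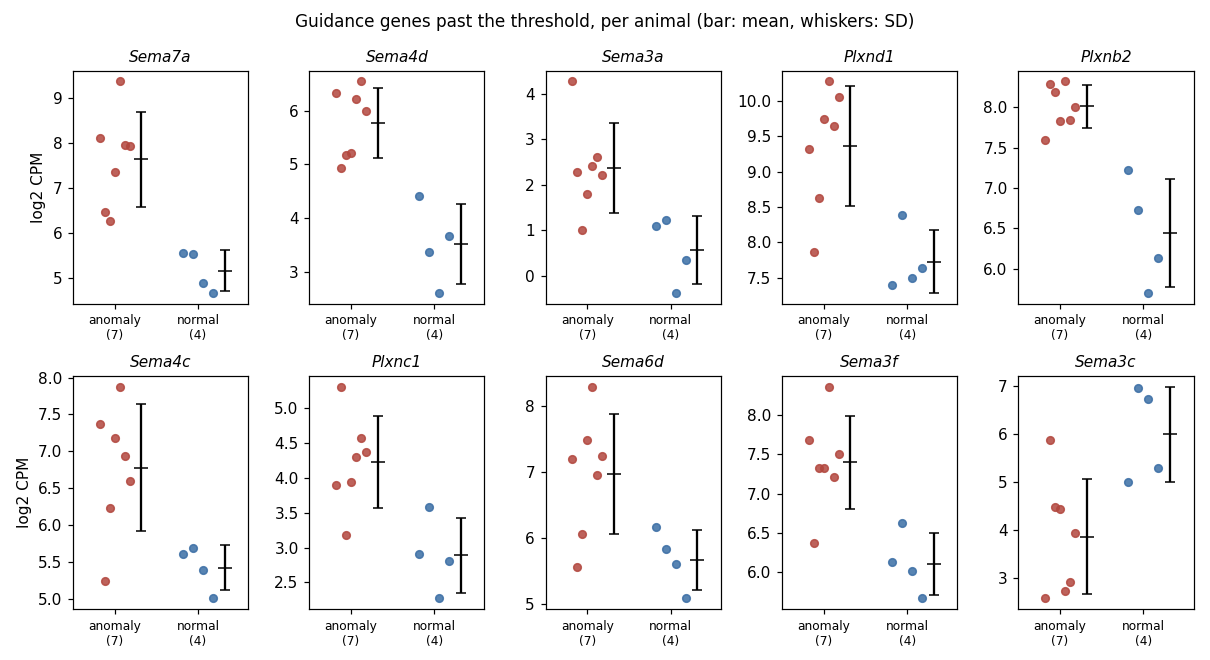
Log2 CPM of the 10 guidance genes that passed the test, one point per animal, 7 anomaly animals at the left of each panel and 4 normal animals at the right, with the mean and SD as a bar and whiskers. Sema7a, Sema4d and Plxnb2 show no overlap between groups, and Sema3c is the panel in which the anomaly points lie lower.

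In classes 5 and 6, 1 of 6 members passed. Sema6d (chr2:124089969-124667770, + strand), a membrane ligand of plexin A1, lay between 5.55 log2 CPM in 18f and 8.29 in M610, with a median of 7.19, in anomalies, against 6.16, 5.83, 5.60 and 5.08 in F539, M5, M602 and M2 of normal adipose. The groups overlapped. Its log2 fold change of 1.30 ± 0.45 had the weakest test of the 10 (limma adjusted p = 0.0411), and it did not pass in 13 of 24 alternatives. These were, among others, the alternatives without anomaly animal M580 (limma adjusted p = 0.0678), F578 (0.07), M610 (0.0551), M278 (0.061) or M605 (0.0691), and without normal animal M5 (0.0729), M602 (0.0993) or M2 (0.127).

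Sema5b, a membrane ligand with thrombospondin repeats, had a log2 fold change of 1.80 ± 0.97 (limma adjusted p = 0.159). In anomaly animal 18f it stood at -1.30 log2 CPM and in M605 at 4.46, and without 18f the value was 2.45 (limma adjusted p = 0.00817). Sema6b, a ligand of plexin A4, had 0.61 ± 0.30 and passed without M566 (0.80, limma adjusted p = 0.0151). Sema5a had -0.60, and Sema6a and Sema6c had 0.10 and 0.19, or -0.90 and -0.80 relative to endothelial markers, none past the test as deposited.

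The receptor genes Plxnd1, Plxnb2 and Plxnc1 rose, each of a different plexin subfamily. Plxnd1 (chr6:115954811-115995005, - strand) encodes the plexin most tied to endothelium, a receptor of Sema3e. It lay between 7.86 log2 CPM in 18f and 10.28 in M610, with a median of 9.65, in anomalies, against 7.40 in F539, 8.38 in M5, 7.49 in M602 and 7.64 in M2 in normal adipose. Animal 18f lay below normal animal M5, and the other 6 anomaly animals lay above every normal animal. Its log2 fold change was 1.64 ± 0.43 (3.11-fold; limma adjusted p = 0.0132), and it passed with any 1 animal left out. Relative to the endothelial markers it was 0.64 (limma adjusted p = 0.24), and in the fat-titled anomalies 1.03 (limma adjusted p = 0.253).

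Plxnb2 (chr15:89155549-89180788, - strand), a receptor of Sema4c and Sema4d, was the most even of the 10 among lesions, between 7.60 log2 CPM in M580 and 8.32 in M610, with a median of 8.0 and an SD of 0.27, against 7.22, 6.73, 5.70 and 6.13 in F539, M5, M602 and M2 of normal adipose. No animals overlapped. The log2 fold change was 1.56 ± 0.27, with the smallest adjusted p of the members (limma, 0.00192). Relative to endothelial markers it was 0.57 and did not pass (limma adjusted p = 0.312). In the fat-titled anomalies it was 1.62, just short of the threshold (limma adjusted p = 0.0648).

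Plxnc1 (chr10:94790866-94944835, - strand), the plexin of Sema7a and a receptor of immune and nerve cells, lay between 3.18 log2 CPM in M566 and 5.31 in 18f, with a median of 4.31, in anomalies, against 2.90, 3.58, 2.27 and 2.80 in F539, M5, M602 and M2 of normal adipose. Only M566 lay below a normal animal. Anomaly minus normal was 1.34 ± 0.37 (limma adjusted p = 0.0152), or 1.13 without normal animal M602 (limma adjusted p = 0.0605). In the fat-titled anomalies it was 2.06 and passed (limma adjusted p = 0.0313). It shares 1.38% of its exon bases with Gm48718 on the same strand.

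The A-type plexins, which pair with neuropilins, did not pass as deposited: Plxna4 had a log2 fold change of 0.83 (-0.17 relative to endothelial markers), Plxna1 0.05, Plxna2 -0.23 (0.20 with library totals) and Plxna3 -0.91. Plxna1 was nearly level between groups as deposited, at 7.09 ± 0.33 log2 CPM in anomalies and 7.04 ± 0.45 in normal adipose (SD, n = 7 and 4). With library totals Plxna1 passed as higher (0.48, limma adjusted p = 0.0334), but it had -0.94 relative to endothelial markers (0.0953). Plxna1 shares 10.7% of its exon bases with Gm26811 on the opposite strand. Plxna4 passed without M566 (1.05, limma adjusted p = 0.04), as did Plxna3 (-1.25, 0.0279), and Plxna2 passed without normal animal F539 (-0.51, 0.0298). Plxnb1, a receptor of Sema4d, had 1.82 ± 0.75 (limma adjusted p = 0.0771), with normal animal F539 at 5.79 log2 CPM while the other normal animals had 3.67 or less. Without F539 the value for Plxnb1 was 2.51 (limma adjusted p = 0.0177), and without anomaly animal 18f it was 2.18 (0.0212). Plxnb3, under the filter, lay between 0.53 and 1.92 log2 CPM in anomalies and between -0.63 and 0.76 in normal adipose.

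No Slit, Robo, netrin or Unc5 member passed. Slit3, a ligand of Robo receptors, lay between 5.55 and 7.92 log2 CPM in anomalies, against 6.70 in F539, 8.35 in M5, 8.53 in M602 and 8.25 in M2 in normal adipose. Normal animal F539 stood apart from the other 3. The log2 fold change of Slit3 was -1.04 ± 0.52 (limma adjusted p = 0.133), or -1.46 without F539 (0.0442). Slit2 had 1.39 ± 0.69 (limma adjusted p = 0.134), the receptor gene Robo1 had 0.72 ± 0.54 (0.306), and Robo2 was under the filter with between 1 and 89 reads in each anomaly library and 3 to 18 in each normal library.

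Unc5b, an endothelial netrin receptor, ranged widely among the lesions, between 4.72 log2 CPM in 18f and 8.92 in M610, with a median of 6.11, in anomalies, against 5.07, 5.40, 4.48 and 4.54 in F539, M5, M602 and M2 of normal adipose. Only 18f lay among the normal animals. On the log2 scale the difference was 1.82 ± 0.70 (limma adjusted p = 0.0596), and without 18f it was 2.14 and passed (0.0175). Ntn1, the ligand of Dcc and Unc5 receptors, had -1.07 ± 0.58 (limma adjusted p = 0.160), and Ntn4, a netrin of basement membranes, had 0.53 ± 0.66 (0.543). Unc5c was under the filter, with a mean of -0.10 log2 CPM in both groups.

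Levels were compared between genes only per kilobase of exon. Plxnd1 was the most abundant member in anomalies, at 90.2 CPM per kb, against 29.0 in normal adipose, where it was second. Sema7a was second in anomalies at 60.0 CPM per kb, against 10.8 and eighth place in normal adipose. Slit3 led in normal adipose and was seventh in anomalies, at 19.9 CPM per kb in anomalies and 41.0 in normal adipose. Plxnb2, Sema3f and Sema3g followed Sema7a in anomalies, at 33.4, 32.5 and 30.5 CPM per kb, and those 3 lay closer to each other than the SDs of the animals. Sema4d, although second in log2 fold change, was of middle abundance, at 7.11 CPM per kb in anomalies and 1.49 in normal adipose. Over all 37 members, per-kb levels ran from 0.0333 to 90.2 in anomalies and from 0.0285 to 41.0 in normal adipose, with Robo2 lowest in both.

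**Figure D3:**
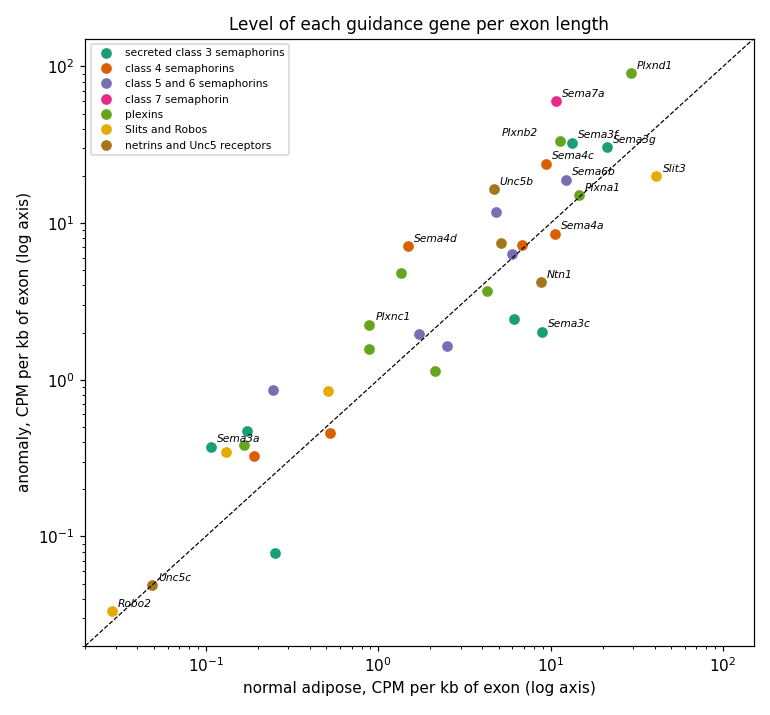
Mean level of each of the 37 guidance genes in CPM per kb of exon, anomaly on the y axis against normal adipose on the x axis, both on log axes, coloured by role, with a dashed line at equal levels. Plxnd1 and Sema7a stand at the top, above the line, and Slit3 and Sema3c lie below it.

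Of the ligands and receptors known to act together, some were both higher and others were not. Sema7a and Plxnc1 were both higher, as were Sema4c and Sema4d with Plxnb2, Sema4d with Cd72, and Sema3f with Nrp2. Itgb1, the beta1 integrin gene for the other receptor named for Sema7a, did not pass (0.63 ± 0.31, limma adjusted p = 0.130). Sema3c was lower while Plxnd1 was higher. Sema4d, Sema6d and Sema3a were higher while Plxnb1 (limma adjusted p = 0.0771), Plxna1 (0.870) and Nrp1 did not pass. Cd72, a receptor of Sema4d on B cells and macrophages, had between 3.97 and 6.38 log2 CPM with a median of 5.55 in anomalies, against 2.90 in F539, 2.06 in M5, 0.78 in M602 and 1.97 in M2 in normal adipose. It had the largest log2 fold change of the other pathway genes, 3.47 ± 0.52 (limma adjusted p = 0.00125). Nrp2, the neuropilin of Sema3f, had between 7.11 and 8.62 log2 CPM with a median of 7.58 in anomalies, against 6.25, 7.32, 6.36 and 6.26 in F539, M5, M602 and M2 of normal adipose (1.20 ± 0.33, limma adjusted p = 0.0147). Without normal animal M602 or M2 Nrp2 did not pass (limma adjusted p = 0.0514 and 0.0512). Relative to endothelial markers Nrp2 had 0.21 (limma adjusted p = 0.701) and Sema3f 0.30 (0.583), so neither of that pair passed, while Cd72 still did (2.48, 0.000186). Nrp1, the neuropilin of Sema3a, had -0.71 ± 0.35 (limma adjusted p = 0.129), and it passed relative to endothelial markers (-1.70, 0.00463) and with subQ-titled anomalies alone (-0.96, 0.0423). Sema4d, Plxnb2 and Cd72 showed no overlap between groups, where 8.3% of all genes tested were higher without overlap. Plxnb1, also a receptor of Sema4d, did overlap, with normal animal F539 at 5.79 log2 CPM and anomaly animal 18f at 3.33. Macrophage and T cell markers were higher in the same lesions, and their part in these pairs was not tested.

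**Figure D4:**
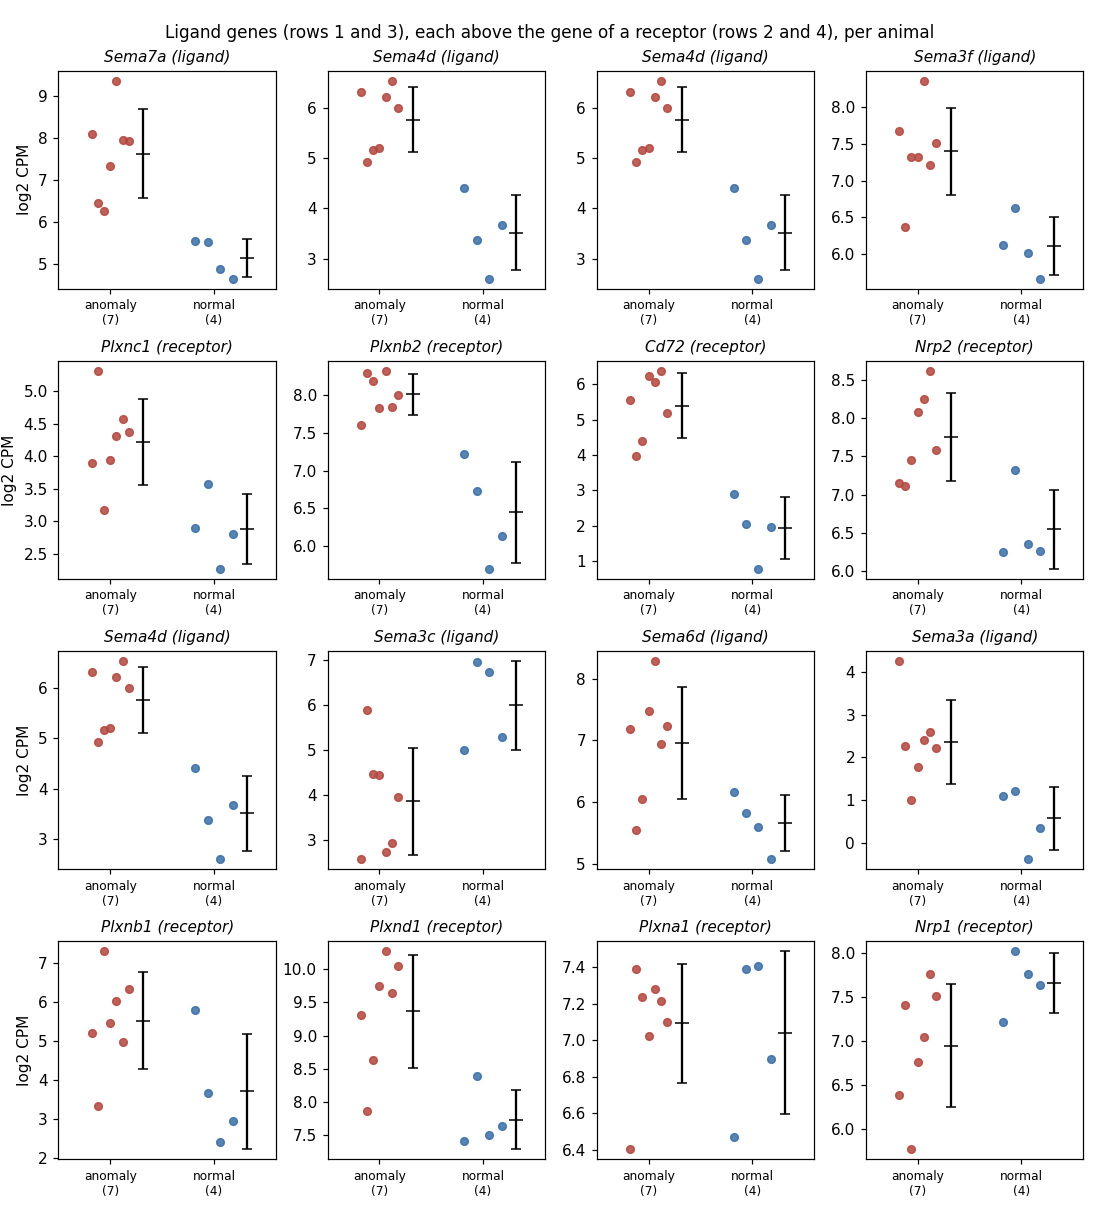
Log2 CPM per animal of ligand genes (rows 1 and 3), each above the gene of a receptor of it (rows 2 and 4), 7 anomaly animals at the left of each panel and 4 normal animals at the right, with mean and SD. In the upper pairs both genes passed the test as higher in anomalies; in the lower pairs Plxnb1, Plxna1 and Nrp1 did not pass, and Sema3c and Plxnd1 passed in opposite directions.

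A list of 76 other genes of these pathways gave 75 that were measured and 61 that were tested, of which 16 were higher and 10 lower, where 15.3% of all genes were higher and 23.2% lower, with a median log2 fold change of 0.03. The lower count was 3 without normal animal M602, 4 without M5 and 6 without M2. Of all genes, 1853, 2307 and 2022 were lower in those fits, against 3001 with every animal kept. Relative to endothelial markers 4 were higher and 23 lower, where 2.41% of all genes were higher and 44.5% lower. With library totals 27 were higher and 2 lower, where 35.3% of all genes were higher and 12.2% lower. Among receptors, Robo4, the endothelial Robo, had 0.76 ± 0.34 (limma adjusted p = 0.0988) and passed without 18f (0.90, 0.0382) or M566 (0.90, 0.0455). Neo1, which encodes neogenin, had -0.97 ± 0.37 and did not pass (limma adjusted p = 0.0607). Its highest anomaly animal stood at 5.80 log2 CPM and its lowest normal animal at 5.81, so the groups barely missed overlapping. That rests on the average of M566, whose arm piece at 6.09 lay above F539, M5 and M2 (5.81, 5.96 and 6.05). Of all genes tested, 12.4% were lower without overlap. Neo1 passed in 6 of 24 alternatives. Among these were those without M580 (-0.70, limma adjusted p = 0.026) or M566 (-1.09, 0.0376) and with fat-titled anomalies alone (-1.03, 0.0449). Unc5a was lower, by -1.92 ± 0.54 on the log2 scale (limma adjusted p = 0.0170), and Dcc and Unc5d were under the filter. Dcc had reads in 1 library of 12, the arm piece of M566.

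Other pathway genes with large changes, each past the same test, were Sdc1, a syndecan (3.02 ± 0.57), and the collapsin response mediators Crmp1 (3.01 ± 0.87) and Dpysl3 (2.06 ± 0.39). Crmp1 had a normal mean of 0.39 log2 CPM and passed the filter through its anomaly values. It did not pass without normal animal M602 (2.63, limma adjusted p = 0.0711) or with limma-voom (2.80, 0.123). Flrt2, an Unc5 ligand, had 1.84 ± 0.40, and Mical1, an actin oxidase downstream of plexins, had 1.72 ± 0.33. Fes, a kinase downstream of plexin A, had 1.66 ± 0.29. Relative to endothelial markers Flrt2 (0.85, limma adjusted p = 0.148), Mical1 (0.73, 0.169) and Fes (0.66, 0.207) did not pass. Mst1r, a receptor kinase that pairs with B-type plexins, was lower, at -1.60 ± 0.50 (limma adjusted p = 0.0264), but did not pass without normal animal M5 (0.0655), M602 (0.0712) or M2 (0.0802), or with library totals (-1.17, 0.0642). In the 2 fat-titled anomalies alone, Cd72 (3.24, limma adjusted p = 0.0532), Sdc1 (1.80, 0.104), Crmp1 (1.18, 0.458), Dpysl3 (1.95, 0.0814), Mical1 (1.28, 0.0814), Nrp2 (1.32, 0.139), Unc5a (-1.50, 0.0567) and Mst1r (-1.15, 0.232) did not pass.

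The call of most members depended on what the lesion was measured against. Scaled to library totals, 14 members were higher and 1 lower, where 35.3% of all genes were higher and 12.2% lower, and the median of all genes moved by 0.43 on the log2 scale. Relative to the 20 endothelial markers, 2 members were higher, Sema7a and Sema4d, where 2.41% of all genes were higher. In that scaling 8 were lower, Sema3b, Sema3c, Sema4a, Sema5a, Plxna2, Plxna3, Slit3 and Ntn1, where 44.5% of all genes were lower. The other 7 members that rose as deposited then had values between 0.30 for Sema3f and 0.81 for Sema3a, none past the test (limma adjusted p of 0.583 for Sema3f, 0.573 for Sema6d, 0.575 for Plxnc1, 0.504 for Sema4c and 0.245 for Sema3a). In the 2 fat-titled anomalies against normal adipose, 4 members were higher, Sema7a, Plxnc1, Plxna4 and Sema6b, and 1 was lower, Plxna3, where 6.58% of all genes were higher and 5.09% lower. With these 2 lesions Sema3a had 1.87 (limma adjusted p = 0.0824), Sema3c -1.59 (0.305), Sema4c 0.66 (0.389) and Sema6d 0.58 (0.428). Sema7a was the member called higher in all of these.

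**Figure D5:**
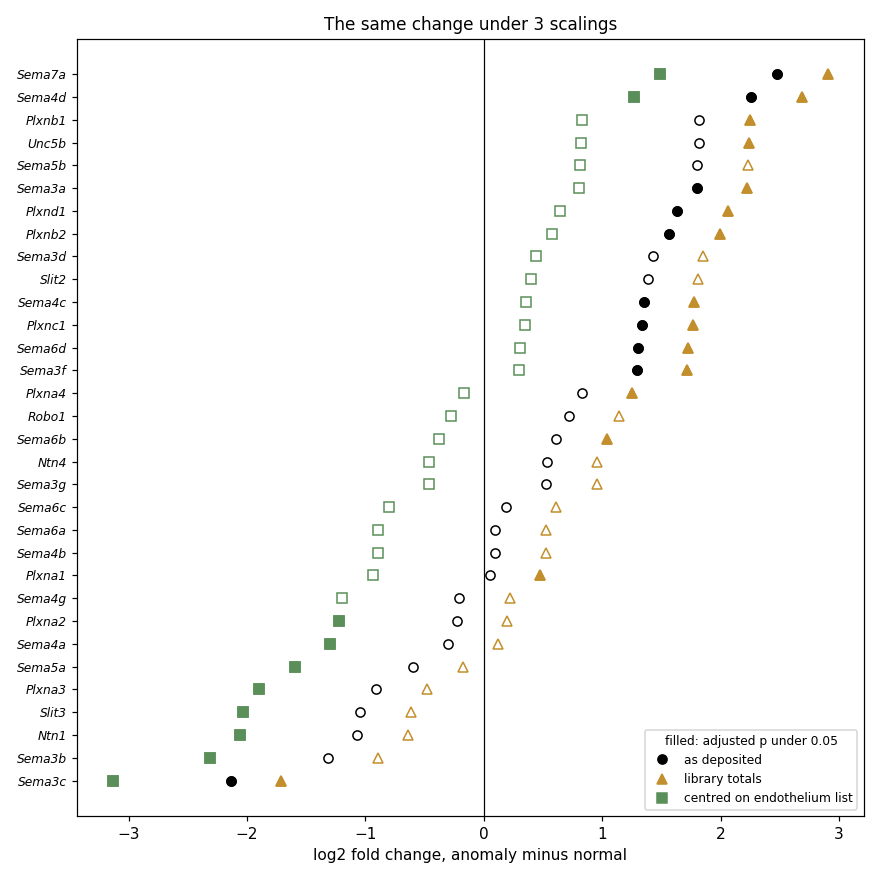
Log2 fold change, anomaly minus normal, of the 32 tested guidance genes under 3 scalings: as deposited (circles), to library totals (triangles) and centred on the endothelium list (squares), with filled symbols past the test. Sema7a and Sema4d stay filled at the right in all 3, and Sema3c stays filled at the left.

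The 2 pieces of animal M566 differed in several members. The arm piece was higher for 29 of 37 members and the leg piece for 8, with a median absolute difference of 0.77 on the log2 scale. The same counts were not taken over all genes, so these describe the 2 libraries and not guidance genes in particular. Composition factors of the libraries differed too, at 1.24 for the leg piece and 1.39 for the arm piece. Differences over 2 were found for Sema3d (-4.99, leg minus arm), Sema4g (-3.45), Sema3g (-3.43), Plxna4 (-2.53), Sema6c (-2.24) and Sema3c (-2.04). Of the members that rose, Sema7a differed most, at -1.20, from 5.66 log2 CPM for the leg piece and 6.86 for the arm piece. Both pieces were above every normal animal for Sema7a. As single pieces they carry no replicate error of their own.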

How the data were processed

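The authors deposited 1 table of 32774 genes by 12 libraries of log2 CPM values, made from unstranded poly-A libraries per the labels' protocols. The submitters' processing notes name STAR, limma and the builds mm10 and GRCm38; their roles, the normalization and the prior are not given in the sources used here. Linear values, less the prior, were whole multiples of 1 step within 0.1 in 100% of cases, read as recovered reads. Composition factors show scaling beyond library totals that differed between the groups. They were 1.094 to 1.412 in anomaly libraries and 0.795 to 1.088 in normal libraries. These reads carry no molecular identifiers, so depth and floors (3 reads, 0.0914 to 0.267 CPM in 11 libraries and 2.23 CPM in M580) cover counting error only.

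The titles define 7 anomaly and 4 normal animals. Whether animals shared litters is not stated. The p-values set the group difference against the moderated spread between these animals, and they do not separate the lesion from the titled site.

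Genes averaging 1 log2 CPM or more over the 11 animals were tested with limma 3.58.1 (R 4.3.3, statmod 1.5.0; mean trend, robust, two-sided, Benjamini-Hochberg). Fold changes are log2 differences, anomaly minus normal, with the moderated SE. The test was run on simulated reads with 200 changed genes, as many raised as lowered, and no scaling difference between groups. That simulation therefore does not bear on how calls depend on scaling. The members and lists were chosen with earlier results of these data known. All 37 members are accounted for; of other pathway genes, the named receptors and at most 8 of those past the threshold, by size of change, are given. Alternatives changed the scaling, filter, prior, test, pieces, titled site and each animal. IDs were matched to reference symbols for 32671 rows. Exon lengths and overlaps come from GENCODE vM21, promoter windows from RefSeq.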

Additional observations from a re-analysis of the deposited data

Results flagged for a closer look

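In 3 cases a value lay far from the rest of its group, out of 74 groups of animals examined (37 members in both groups), where chance flags about 1 group in 20. Sema4g stood at 3.59 log2 CPM in anomaly animal M566, while the next anomaly animal stood at 1.94, and that value is the mean of 1.86 in the leg and 5.32 in the arm. Plxna1 stood at 6.40 in anomaly animal M580, the library with 953994 recovered reads, while the next lowest stood at 7.02. Slit3 stood at 6.70 in normal animal F539, while the next lowest normal animal stood at 8.25.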

How the results depend on the processing

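Sema7a kept its call in all 24 alternatives, Sema6d lost it in 13, and Sema3a, Sema3c, Sema4c, Sema4d, Sema3f, Plxnb2, Plxnc1 and Plxnd1 lost it in those named with their values in the results. No called member changed sign. Members higher numbered 9, against 14 with library totals, 2 centred on the endothelium list, 4 with fat-titled anomalies alone and 5 to 12 with 1 animal left out; members lower numbered 1, against 8 when centred and 0 to 3 with 1 animal left out. All genes past the threshold numbered 4986, against 1512 with fat-titled anomalies alone and 3042 to 5815 with 1 animal left out. Other pathway genes higher numbered 16, against 27 with library totals, 4 centred, 6 fat-titled alone; those lower numbered 10, against 2 with library totals, 23 centred, 6 fat-titled alone and 3 to 12 with 1 animal left out.

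Signs turned only for uncalled genes. Centred on the endothelium list they were Sema3g -0.47, Sema4b -0.90, Sema6a -0.90, Sema6b -0.38, Sema6c -0.80, Plxna1 -0.94, Plxna4 -0.17, Robo1 -0.27, Ntn4 -0.46 and Robo4 -0.23. With library totals they were Sema4a 0.12, Sema4g 0.22 and Plxna2 0.20. In fat-titled anomalies they were Sema4b -0.39, Sema5b -0.23, Sema6a -0.11, Sema6c -0.37, Robo1 -0.28 and Ntn4 -0.74. Sema4g was 0.040 with the arm piece and 0.107 with limma-voom, and Plxna1 was -0.031 in subQ-titled anomalies. With 1 animal left out, Sema4b ran from -0.068 to 0.23, Sema4g from -0.48 to 0.037, Sema6a from -0.13 to 0.42, Sema6c from -0.14 to 0.41 and Plxna1 from -0.14 to 0.17. The cause was not tested. No paired analysis was possible because the groups share no replicate numbers. Depth limits M580 most, where 3 reads stand for 2.23 CPM.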
